A study of Mus musculus with 9 samples.

Results

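The 10 genes Rela, Relb, Nfkb1, Nfkb2, Nfkbia, Tnfaip3, Tnfaip2, Birc3, Icam1 and Vcam1 were taken by symbol from an expression table of 22322 mouse genes, where each matched 1 gene. They are 4 subunits of the transcription factor NF-kB, 2 of its inhibitors and 4 genes that it is known to switch on. mRNA was sequenced from wild-type (WT) mouse retinal ganglion cells (RGCs), bought from a supplier and grown in culture, in 3 groups of 3 libraries. Normal RGCs were grown in complete medium. Aging RGCs had been treated with D-galactose, a sugar used to induce senescence in culture. Aging RGCs + USCs medium had the same treatment and were then grown in medium conditioned by human urine-derived stem cells (USCs), from which the stem cells had been removed. The comparison of the last pair asked what the conditioned medium changes in aging RGCs. No library of RGCs in unconditioned USC medium is among the 9, so released factors and the base medium cannot be told apart. The replicates were wells, and p-values measure only the spread between these samples, which may be technical.

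NF-kB subunits sit in the cytoplasm as pairs held by I-kappa-B proteins. Signals from tumour necrosis factor (TNF), interleukin-1 or Toll-like receptors activate the I-kappa-B kinase complex, the inhibitor is degraded and the pair moves to the nucleus. There it turns on genes for cytokines, adhesion molecules and survival factors, together with its own inhibitors, which close a negative feedback loop. In senescent cells the pathway is known for driving a secreted inflammatory programme.

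The sites that NF-kB reads were looked for in the promoters, since several of the 10 genes are known both as parts of the pathway and as its targets. RefSeq promoter windows on GRCm38.p6 were found for 7 of the 10 genes, and Nfkb1, Relb and Vcam1 were not matched. The NF-kB consensus, a motif of 10 letters searched on both strands with overlapping matches allowed, occurred in the 250 bases before a start in 3 of these 7 genes, Nfkbia, Tnfaip3 and Nfkb2. Of the 27025 genes in the table, 4.46% held a match. The matches were as follows, 5′ to 3′ on the strand of the gene, with capitals for the consensus and the last base of the runs for Nfkbia and Tnfaip3 lying next to the start. The run for Nfkb2 holds the farther overlapping matches before the first of its 3 starts, 39 to 30 bases before it on both strands and 38 to 29. A nearer match follows on a line of its own. The windows of the other Nfkb2 starts held 1 match each, 236 to 227 and 225 to 216 bases before the start, which are not printed.
Nfkbia, chr12:55492648-55492717, minus strand: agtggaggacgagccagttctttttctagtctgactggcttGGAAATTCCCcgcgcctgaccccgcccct
Tnfaip3, chr10:19015411-19015540, minus strand: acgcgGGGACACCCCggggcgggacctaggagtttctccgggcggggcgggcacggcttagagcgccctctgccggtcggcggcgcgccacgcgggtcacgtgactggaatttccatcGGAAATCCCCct
Nfkb2, chr19:46304688-46304717, plus strand: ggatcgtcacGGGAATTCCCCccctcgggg
Nfkb2, chr19:46304709-46304736, plus strand: ccctcggggggccgaaaGGGGCTTTCCc
The first Nfkb2 window lies within an exon of another Nfkb2 transcript, so short runs are shown. The Tnfaip3 run overlaps no annotated exon but lies inside the gene, in an intron of a longer transcript, and the window at its other start held no match. No match lay in the windows of Rela, Tnfaip2, Birc3 and Icam1, which says only that these letters are not in those bases. For Tnfaip2 and Icam1 the bases after the window's start were not found in an annotated transcript, so these starts were not checked. The Tnfaip2 window, 111442411 to 111442710, lies mostly inside the gene as annotated, which begins at 111442469. Expression of the 3 genes with a match is given below.

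The libraries held 18189616 to 22342288 counts each, and CPM values, the counts of a gene scaled to the same library total, used TMM factors of 0.956 to 1.03. edgeR tested 12145 genes, and 9 of the 10 genes were among them, while Icam1 had too few counts. The label of the cells was checked against 10 markers of retinal ganglion cells. Among them Pou4f2 and Pou4f3 had 0 counts in all 9 libraries, and Thy1 had at most 1. Rbpms, Isl1 and Nefl were detected, but the keratin Krt8 reached 14874 counts and the intermediate filament Vim 41046 in 1 library. Other epithelial and mesenchymal markers ranged widely. Krt18 and Krt19 reached 7025 and 8145 counts, while Krt5 was at 0 and Cdh1 at 5 or fewer. Col1a2 and Acta2 had at most 9 and 14. The RGC markers summed to 139 to 150 CPM in the normal group, 99.2 to 103 in the aging group and 75.4 to 83.5 with USCs medium. Most of this sum was Rbpms and Nefl. Mean FPKM in normal, aging and medium libraries was 31.5, 26.4 and 23.7 for Rbpms and 19.4, 11.5 and 4.90 for Nefl. Pou4f1 did not follow the sum, with 9, 10 and 10 counts in normal, 10, 14 and 27 in aging and 2, 8 and 15 in medium libraries. Fewer cells of a type and less RNA per cell cannot be told apart in these bulk cultures.

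Levels between genes were compared in FPKM, which divides by gene length. In normal RGCs Tnfaip2 was the most abundant of the 10 genes at 51.4 ± 4.77 FPKM (SD, n = 3), followed by Nfkbia at 41.8 ± 1.60. Nfkb1 at 32.9 ± 0.969 and Rela at 30.9 ± 1.14 overlapped, and Nfkb2 lay below them at 24.1 ± 1.79. Apart from the target Tnfaip2, these are subunits and the main inhibitor of the pathway, while the subunit Relb was lower. Vcam1 came next at 11.0 ± 0.367 FPKM, then Birc3 at 8.03 ± 0.610 and Relb at 7.26 ± 0.596, which overlapped. Tnfaip3 was low at 1.79 ± 0.649 FPKM and Icam1 near the limit of detection at 0.187 ± 0.0643.

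The order of several genes differed in the other groups. In aging RGCs Nfkbia at 41.3 ± 2.50 FPKM, Tnfaip2 at 36.7 ± 3.25 and Rela at 33.0 ± 1.82 overlapped from neighbour to neighbour, and Rela lay wholly above Nfkb1 at 29.8 ± 0.744. With USCs medium Nfkb1 at 30.6 ± 1.29 lay wholly above Rela at 27.9 ± 1.27. In aging RGCs + USCs medium Vcam1 dropped in rank, to 5.81 ± 0.453 FPKM, below Birc3 at 7.85 ± 0.806 and overlapping Relb at 6.31 ± 0.987. Tnfaip3 and Icam1 stayed the lowest of the 10 in every group.

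**Figure D1:**
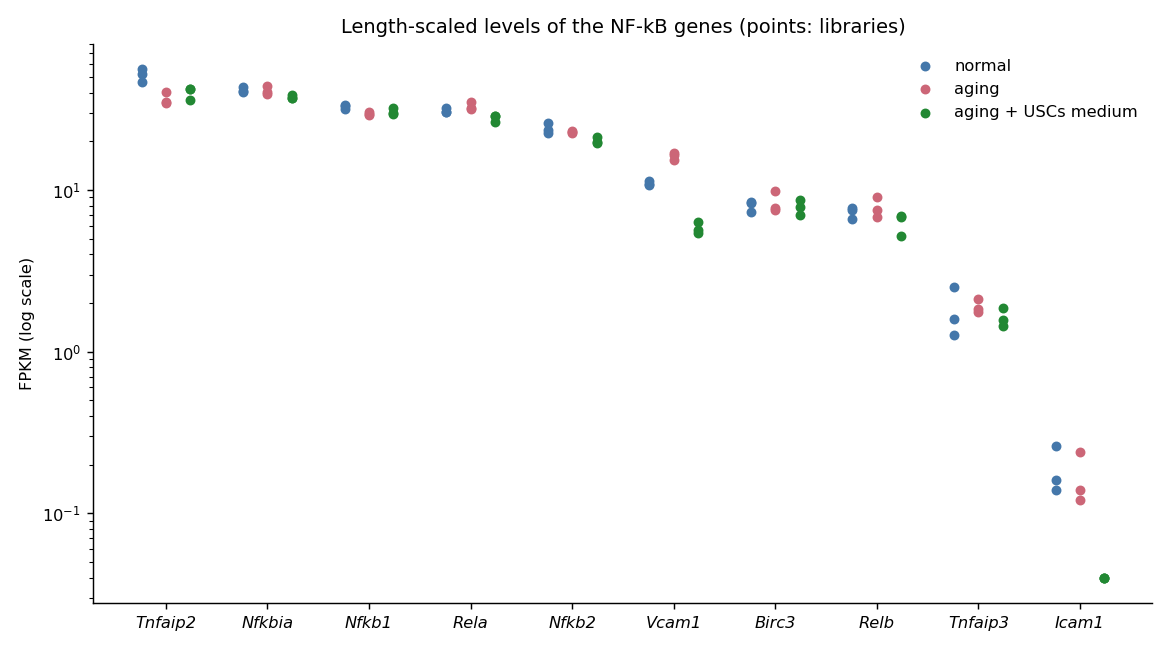
Levels of the 10 genes in FPKM on a log axis, with the genes along the x axis in the order of their mean in normal RGCs and 1 point per library, coloured by group. Vcam1 moved from 11.0 in normal to 16.3 in aging and 5.81 in aging RGCs + USCs medium, while Icam1 was at 0.04 in each of the 3 medium libraries.

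In aging against normal RGCs, Vcam1 and Rela rose and Tnfaip2 and Nfkb1 fell, while Nfkb2, Relb, Nfkbia, Tnfaip3 and Birc3 did not pass the test. Of the 9 genes tested, 2 were higher and 2 lower at an adjusted p under 0.05, against 23.6% of all tested genes higher and 23% lower. No member reached a 2-fold difference, which 1.09% of all genes reached upward and 1.56% downward. The 3 libraries of each group did not overlap for 4 of the 9 genes, as for 53% of all genes. The median absolute log2 difference of the 9 was 0.12, below 0.18 over all tested genes.

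In aging RGCs + USCs medium against aging RGCs, these 4 genes passed the test with the sign of each difference turned. Vcam1 and Rela fell, and Tnfaip2 and Nfkb1 rose. The counts were again 2 higher and 2 lower of 9, against 27.1% and 26% of all tested genes. Vcam1 was the only one of the 9 past 2-fold, downward, where 4.21% of all genes were lower and 1.24% higher by that much. Groups did not overlap for 5 of the 9 genes, as for 59.8% of all genes. The median absolute log2 difference was 0.16, against 0.21 over all genes. Both comparisons use the same 3 aging libraries, so a library value that is high or low by chance moves them in opposite directions.

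Aging RGCs + USCs medium against normal RGCs, which does not use the aging libraries, gave 0 genes higher and 3 lower, Vcam1, Tnfaip2 and Nfkb2. Of all genes, 30.6% were higher and 29.9% lower. None of the 9 genes passed 2-fold, while 1.47% of all genes did upward and 5.24% downward. The libraries did not overlap for these 3 genes, as for 63.8% of all genes, and the median absolute log2 difference was 0.08 against 0.25. The count of 0 higher genes came from edgeR. It was also 0 at an unadjusted p under 0.05, with DESeq2 and with limma. The share of the 9 genes called was close to or below that of all genes in each comparison.

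**Figure D2:**
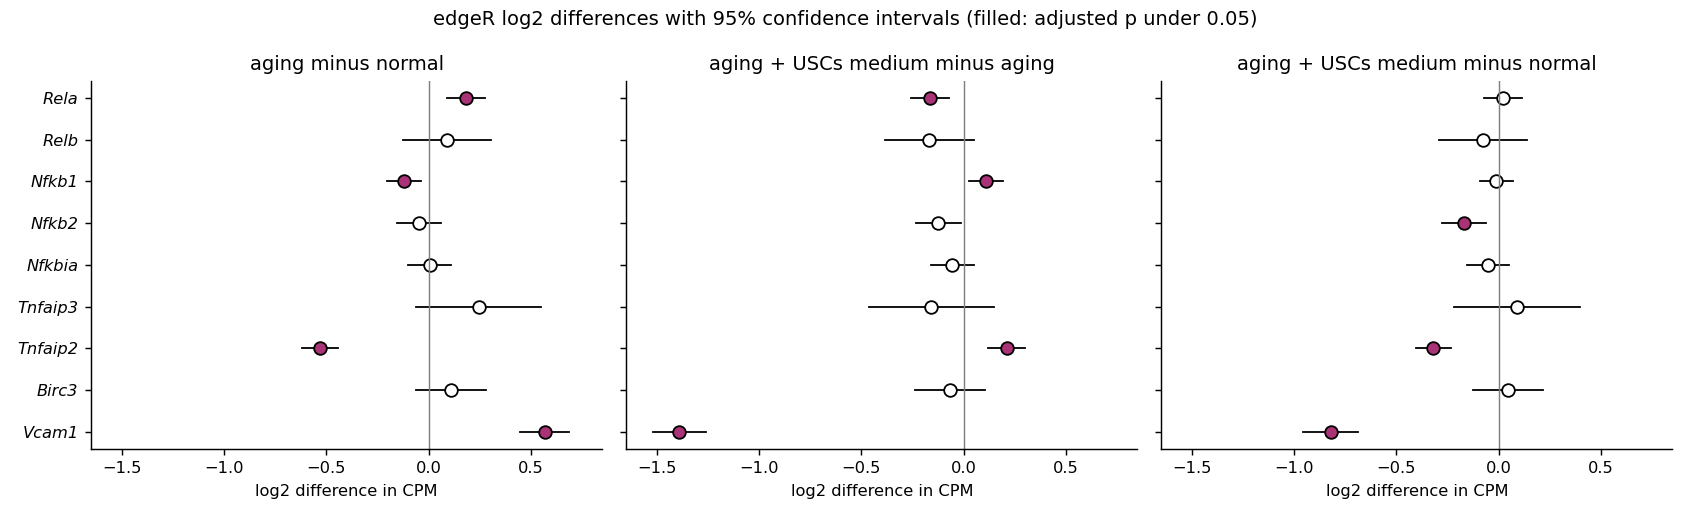
Log2 differences in CPM from edgeR for the 9 tested genes (x axis) in the 3 comparisons, with 95% confidence intervals as lines and filled points for an adjusted p under 0.05. Vcam1 lies at 0.57, -1.39 and -0.82 from left to right, and the points of the other genes lie between -0.53 and 0.25.

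Rela on chromosome 19 (GRCm38, 5637483 to 5648130, plus strand) encodes the subunit that carries the main activating domain of canonical NF-kB. It was at 71.2, 68.9 and 71.6 CPM in the normal libraries, 78.0, 84.2 and 78.5 in the aging libraries and 71.6, 70.5 and 72.7 with USCs medium. All 3 aging libraries lay above the other 6, which overlapped. Rela rose in aging RGCs by 0.19 on the log2 scale (SE 0.05, edgeR adjusted p = 0.00132), or 13.7%, and fell with the medium by 0.16 (SE 0.05, adjusted p = 0.00325). Medium and normal libraries differed by 0.02, with a 95% confidence interval from -0.07 to 0.11. In log2(FPKM + 1) the direction turned, to -0.14, and passed (limma adjusted p = 0.0347). On that scale the rise in aging RGCs was 0.09 and did not pass (limma adjusted p = 0.179).

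Nfkb1 (chromosome 3, 135584655 to 135691547, minus strand), whose protein is cut into the usual partner of RelA, moved the other way by a smaller amount. Its values were 109, 103 and 105 CPM in normal, 96.6, 99.5 and 96.0 in aging and 104, 108 and 102 in USCs medium libraries. The aging libraries were the lowest 3, and normal and medium libraries overlapped. Nfkb1 fell by 0.12 in aging RGCs (SE 0.04, adjusted p = 0.0160) and rose by 0.11 with the medium (SE 0.04, adjusted p = 0.0247). Both calls were lost under other choices. The first was lost without normal replicate 1 (adjusted p = 0.0622) or aging replicate 3 (0.0663), and the second without aging replicate 1 (0.0608), aging replicate 3 (0.0832) or medium replicate 2 (0.103). The rise with the medium was also 0.03 without TMM factors (adjusted p = 0.527), 0.08 with upper-quartile factors (0.0962) and 0.04 in log2(FPKM + 1) (limma, 0.498). Another annotated gene, Gm43430, overlaps Nfkb1 on the same strand.

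Nfkb2 (chromosome 19, 46304320 to 46312385, plus strand) and Relb (chromosome 7, 19606217 to 19629438, minus strand) encode the pair of the non-canonical branch, which lymphotoxin and CD40 signals engage. Nfkb2 was at 70.5, 79.0 and 68.0 CPM in normal, 70.6, 71.1 and 68.9 in aging and 62.3, 67.8 and 63.2 with the medium. The 3 medium libraries were the lowest, just under the lowest normal and aging values. Nfkb2 fell by 0.17 in the medium against normal libraries (SE 0.05, adjusted p = 0.00677), but without normal replicate 2 the adjusted p was 0.0788. Its difference between medium and aging libraries was -0.12 (adjusted p = 0.0540), and it passed in 9 of 18 other settings, over which it ranged from -0.20 to -0.10, among them those without TMM factors and with FPKM. Nfkb2 overlaps Psd on the other strand, its deposited counts had decimals in all 9 libraries, and the sources used here do not say whether strand was used in counting. Relb ranged from 11.6 to 17.5 CPM over the 9 libraries with overlapping groups and no call, its difference between medium and aging being -0.17 with an interval from -0.38 to 0.05.

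Nfkbia (chromosome 12, 55489410 to 55492647, minus strand) encodes I-kappa-B alpha, the inhibitor whose gene NF-kB itself induces, and its printed promoter holds 1 consensus match. It was at 66.6, 62.5 and 63.2 CPM in normal, 60.9, 68.7 and 63.2 in aging and 61.0, 61.1 and 63.5 in USCs medium libraries. The groups overlapped throughout. The difference between aging and normal was 0.0049, with an interval from -0.10 to 0.11, and that between medium and aging was -0.06, from -0.16 to 0.05. With no TMM factors the second difference was -0.13 and passed (adjusted p = 0.0301).

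Tnfaip3 (chromosome 10, 19000910 to 19015657, minus strand) encodes a ubiquitin-editing enzyme that ends TNF signalling, and its promoter run above holds 2 matches. It had 5.41, 8.82 and 6.86 CPM in normal, 9.19, 8.03 and 7.70 in aging and 7.19, 6.65 and 8.50 in medium libraries. The SE of its log2 difference, 0.15, was the largest of the 9 tested genes in each comparison. The groups overlapped because normal replicate 2 was higher than 2 of the 3 aging libraries. Aging minus normal was 0.25 with an interval from -0.06 to 0.55. Without normal replicate 2 it was 0.44 and passed (edgeR adjusted p = 0.0180), and without normal replicate 1 it was 0.08 (edgeR adjusted p = 0.707). With the medium the difference from aging RGCs was -0.16, from -0.46 to 0.15.

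Tnfaip2 (chromosome 12, 111442469 to 111455018, plus strand), named for its induction by TNF and linked to the thin membrane tubes that join cells, had the largest fall of the 9 genes in aging RGCs. Normal libraries held 145, 141 and 147 CPM, aging libraries 101, 94.3 and 105, and medium libraries 112, 121 and 115. The groups were fully apart, with normal highest and aging lowest. Tnfaip2 fell in aging RGCs by 0.53 (SE 0.04, adjusted p = 4.59e-11) and was the gene with rank 862 of 12145 from the lowest log2 difference. It rose with the medium by 0.21 (SE 0.04, adjusted p = 0.00018) and remained below normal, by a log2 difference of -0.32 (SE 0.04, adjusted p = 1.95e-07). On the FPKM scale the rise with the medium was 0.13 and did not pass (limma adjusted p = 0.239). An antisense gene, Gm40578, overlaps Tnfaip2.

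Tnfaip2 is also expressed by myeloid cells, so macrophage markers were set beside it. All 10 had counts in at least 1 normal and 1 medium library, while 3 of them were at 0 throughout the aging libraries. Their summed level, mostly Cd68, lay between 59.2 and 70.1 CPM in normal RGCs, between 44.7 and 51.3 in aging RGCs and between 30.9 and 54.7 with the medium. Cd68 itself was not lower in aging RGCs, with mean FPKM of 32.3 in normal, 34.1 in aging and 24.4 in medium libraries. Lyz2 had 522, 210 and 265 counts in normal, 118, 23 and 38 in aging and 45, 20 and 241 in medium libraries. Adgre1, a defining macrophage gene, had 57, 19 and 43 counts in normal, 2, 0 and 1 in aging and 2, 2 and 32 in medium libraries. The medium library with 32 Adgre1 counts, replicate 3, had 115 CPM of Tnfaip2, between the other two. Without that library the rise of Tnfaip2 with the medium was 0.22 on the log2 scale (adjusted p = 0.000651). The part of these cells in the fall of Tnfaip2 in aging RGCs, or in its rise with the medium, was not tested.

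Birc3 (chromosome 9, 7848699 to 7873186, minus strand), a ubiquitin ligase of TNF receptor complexes that restrains cell death, stayed between 17.0 and 20.8 CPM in all 9 libraries. The groups overlapped in every comparison. Aging minus normal was 0.11 with an interval from -0.06 to 0.28, and medium minus aging was -0.07, from -0.24 to 0.11. No alternative setting gave a call for Birc3.

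Vcam1 (chromosome 3, 116109949 to 116129688, minus strand) encodes a surface adhesion molecule that binds the leukocyte integrin Itga4 and is a classic cytokine-induced gene of endothelium. Its normal libraries held 36.0, 38.1 and 36.0 CPM, its aging libraries 52.0, 55.4 and 55.7, and its USCs medium libraries 19.6, 20.3 and 22.4. The 3 groups were far apart, with aging highest and medium lowest. Vcam1 rose in aging RGCs 1.48-fold (log2 0.57, SE 0.06, edgeR adjusted p = 5.29e-09), with rank 560 of 12145 from the highest difference. With the medium it was 2.62-fold lower than in aging RGCs (log2 -1.39, SE 0.06, adjusted p = 1.51e-16), with rank 295 from the lowest. It also ended 1.77-fold below normal RGCs (log2 -0.82, SE 0.07, adjusted p = 1.23e-11). These 3 calls held in all 18 other settings, with log2 differences of 0.52 to 0.60, -1.47 to -1.35 and -0.92 to -0.78. An antisense gene, Gm43109, overlaps Vcam1.

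Endothelial markers, given because Vcam1 is typical of that cell type, were set beside it. The summed CPM of the 8 markers lay between 12.4 and 14.7 in normal RGCs, between 9.62 and 12.0 in aging RGCs and between 2.33 and 3.13 with the medium, with Cldn5 at 0 in all 9. Most of it was Cdh5, the cadherin of endothelial junctions, with at least 218 counts in each normal library, 131 to 146 in the aging group and at most 30 in each medium library. Cdh5 was thus lowest in the group where Vcam1 was lowest, but it was lower in aging than in normal RGCs, where Vcam1 was higher. The low counts of Vwf and Tie1 were highest in the aging group, like Vcam1. Vwf had 7, 10 and 10 counts in normal, 37, 30 and 21 in aging and 7, 1 and 11 in medium libraries. Tie1 had 8, 13 and 9, then 12, 12 and 14, then 3, 8 and 5, with overlap between normal and aging. Pecam1 was not highest in the aging group, with 23, 27 and 35, then 25, 18 and 8, then 16, 7 and 14. Kdr, Tek and Emcn had at most 10 counts in a library. The part of endothelial-type cells in the Vcam1 values was not tested.

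Icam1 (chromosome 9, 21015985 to 21028817, plus strand), the ligand of leukocyte beta-2 integrins and a textbook NF-kB target, was barely detected. It had 8, 13 and 8 counts in the normal, 11, 6 and 7 in the aging and 2, 2 and 2 in the USCs medium libraries. The 3 medium libraries were below all others, at 0.10 CPM each. Summed over libraries, 24 counts in aging against 6 in medium gave a ratio of 4.10, with an exact 95% interval of 1.63 to 12.3 that covers counting error only. With no low-count filter, edgeR gave a log2 difference of -1.97 (SE 0.82, adjusted p = 0.0406) between medium and aging and -0.12 (SE 0.64, adjusted p = 0.928) between aging and normal. Icam1 and Vcam1 thus both had their lowest values in the medium group. An antisense gene, Gm47079, overlaps Icam1.

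**Figure D3:**
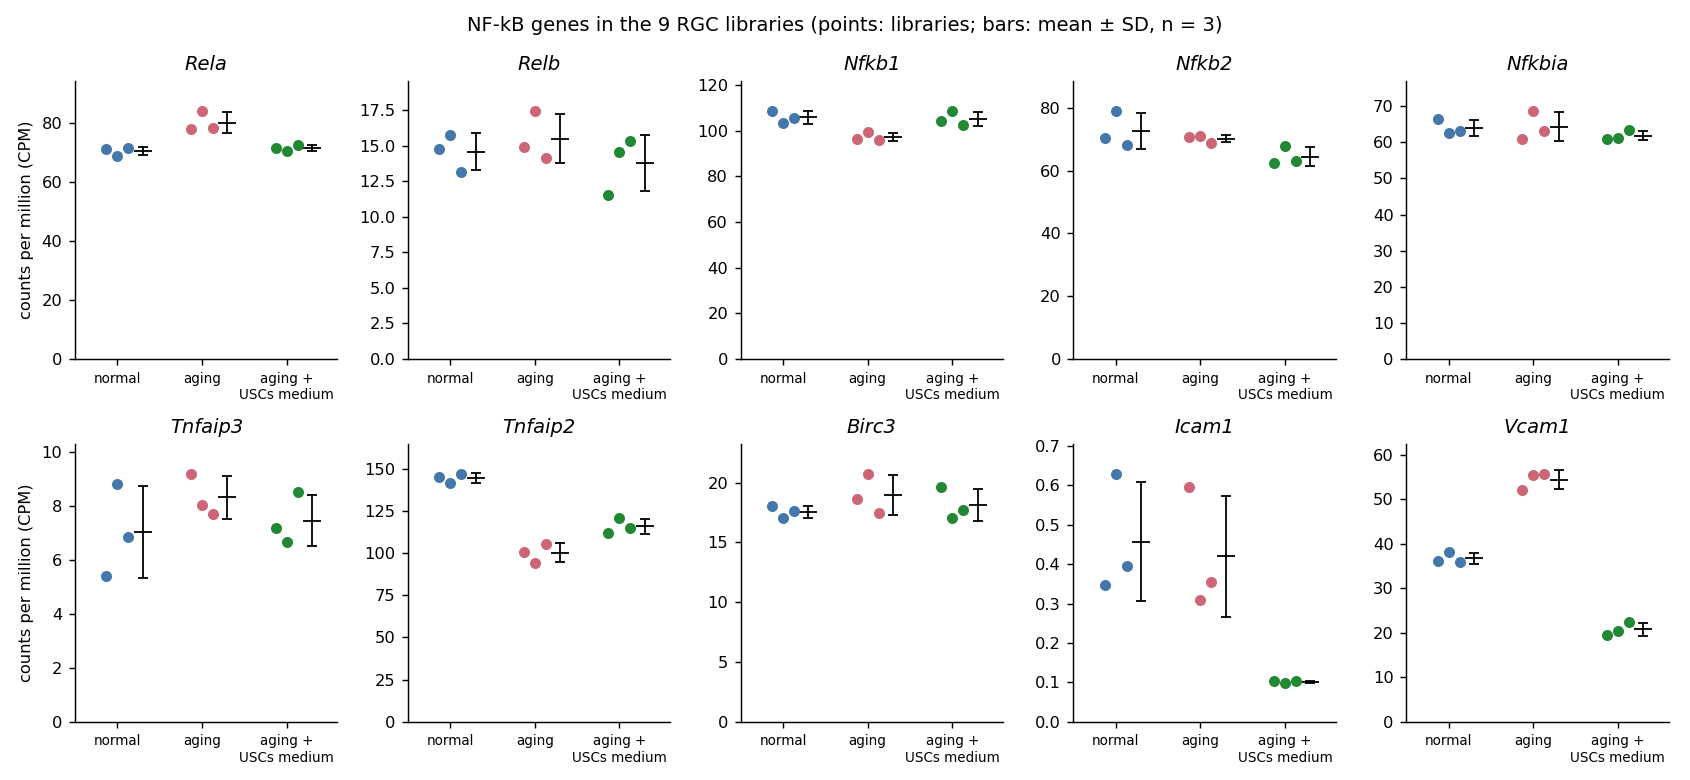
CPM of each of the 10 genes, on axes that start at 0, in the 3 normal, 3 aging and 3 aging + USCs medium libraries (points), with the mean ± SD (n = 3) as bars. Vcam1 separates the groups at 36.0 to 38.1, 52.0 to 55.7 and 19.6 to 22.4, Tnfaip2 at 141 to 147, 94.3 to 105 and 112 to 121, and Nfkbia and Birc3 overlap.

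The genes whose course over the 9 libraries was most like these were found by the root mean square difference of log2 CPM, each gene centred on its own mean, among 10862 genes. For Vcam1 the nearest was Cpt1a, the carnitine palmitoyltransferase that admits fatty acids to mitochondria, at 0.0926, with means of 117, 181 and 61.5 CPM in normal, aging and medium libraries. Sema5a at 0.112 and Mcc at 0.125 followed. For Tnfaip2 they were Necap2 (0.0448), the endocytic adaptor Eps15 (0.0533) and Rabac1 (0.0550). Rela was most like Arhgap11a at 0.0175, with 143, 162 and 144 CPM, followed by Agpat3 at 0.0239 and the enolase Eno3 at 0.0259.

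The rest of the pathway was described from 9 lists of 145 other genes by role, of which 125 were tested. In aging against normal RGCs 27 of the 125 rose (21.6%) and 32 fell (25.6%), and 66 did not pass, where 23.6% of all tested genes were higher and 23% lower. In the medium against aging RGCs 29 rose (23.2%) and 43 fell (34.4%), beside 27.1% and 26% of all genes. Against normal RGCs the medium group had 32 higher (25.6%) and 48 lower (38.4%), beside 30.6% and 29.9%. The median log2 difference of the lists was -0.014, -0.067 and -0.090 in these comparisons, against 0.0018, -0.0067 and -0.013 over all tested genes. At 2-fold or more, 5 rose (4%) and 13 fell (10.4%) with the medium against aging, beside 1.24% and 4.21% of all genes. Against normal 5 rose (4%) and 20 fell (16%), beside 1.47% and 5.24%. The counts of single lists below are to be read beside these same shares of all genes. All 9 lists were written with earlier results of these data known.

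Among the other Rel and I-kappa-B genes, 3 of 5 tested rose and 1 fell in each of the first 2 comparisons. Nfkbie, which encodes I-kappa-B epsilon, rose from 8.62 ± 0.661 CPM in normal to 11.8 ± 0.567 in aging (log2 0.46, adjusted p = 0.00125) and fell to 5.51 ± 0.390 with the medium (log2 -1.10, adjusted p = 9.56e-09). Nfkbib, another I-kappa-B gene, fell in aging RGCs from 24.0 to 20.1 CPM (log2 -0.25, adjusted p = 0.00624). Bcl3, a nuclear I-kappa-B protein that works with the products of Nfkb1 and Nfkb2, was at 13.1 ± 1.92 CPM in normal and 12.7 ± 1.70 in aging and rose to 25.2 ± 1.21 with the medium (log2 1.00, adjusted p = 2.11e-09). Nfkbia, the I-kappa-B gene among the 10, did not pass with the medium.

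Of 11 other brakes, 3 rose and 3 fell in aging RGCs, and 2 rose and 4 fell with the medium. Tnip3, an inhibitor that binds the product of Tnfaip3, rose from 2.84 ± 0.156 to 6.12 ± 0.605 CPM in aging RGCs (log2 1.10, adjusted p = 4.50e-06) and fell to 2.08 ± 0.111 with the medium (log2 -1.55, adjusted p = 3.08e-08). Zc3h12a, a ribonuclease that degrades inflammatory mRNAs, rose from 23.5 to 34.5 CPM (log2 0.55) and fell to 25.6 (log2 -0.43). Tnip2 was higher in the medium than in normal RGCs, 11.2 against 8.21 CPM (log2 0.45).

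The 30 kinases and adaptors had 3 higher and 8 lower in aging RGCs, 8 higher and 6 lower with the medium, and 1 past 2-fold. Rnf31, the catalytic part of the linear ubiquitin ligase, fell in aging RGCs from 12.2 to 8.82 CPM (log2 -0.47), as did the Toll-like receptor adaptor Ticam1, from 58.9 to 46.9 (log2 -0.33). With the medium Traf5, a TNF receptor adaptor, fell from 7.44 to 4.51 CPM (log2 -0.72). The gene past 2-fold was Irak3, with 3 to 8 counts in aging and 8 to 23 in medium libraries (log2 1.40, adjusted p = 0.0266). Irak2 was lower with the medium than in normal RGCs, at 9.92 against 14.6 CPM (log2 -0.55).

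Among 12 tested receptors, 3 rose and 3 fell in aging RGCs, and 3 rose and 5 fell with the medium. Il1rl1, the receptor of interleukin-33, rose from 3.11 ± 0.444 to 6.18 ± 0.573 CPM in aging RGCs (log2 0.99) and fell to 2.23 ± 0.491 with the medium (log2 -1.47, adjusted p = 2.02e-07). Its ligand Il33 was at 1.08 and 1.22 CPM in normal and aging RGCs and rose to 5.09 ± 0.367 with the medium (log2 2.06, adjusted p = 5.11e-07). Tlr2, a receptor of bacterial lipoproteins, fell from 26.5 to 17.6 CPM in aging RGCs (log2 -0.59) and was at 13.2 with the medium, and Il1rap rose with the medium from 40.9 to 59.1 (log2 0.53). Of 7 tested ligands 1 rose and 3 fell with the medium, among them Il1a from 2.23 to 1.24 CPM (log2 -0.84, adjusted p = 0.0118). Tnfsf11, an osteoclast-inducing ligand, fell in aging RGCs from 1.15 to 0.366 CPM (log2 -1.64, adjusted p = 0.00475), and its receptor gene Tnfrsf11a was lower with the medium than in normal RGCs (log2 -1.10, adjusted p = 0.00981), both at 32 counts or fewer in every library.

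The list of 42 other targets, of which 36 were tested, held the largest differences of the 9 lists with the medium. It had 10 higher and 10 lower in aging RGCs and 9 higher and 17 lower with the medium. The prostaglandin synthase gene Ptgs2 fell in aging RGCs from 541 ± 39.1 to 199 ± 7.42 CPM (log2 -1.44, adjusted p = 4.48e-21), and the complement gene C3 rose from 23.2 ± 2.53 to 50.8 ± 1.33 (log2 1.14). With the medium the matrix metalloproteinase gene Mmp3 fell from 28.8 ± 1.63 to 1.07 ± 0.438 CPM (log2 -4.75, adjusted p = 1.79e-20). Lcn2, an iron-sequestering acute-phase protein, rose from 4.33 ± 0.692 to 79.0 ± 3.84 (log2 4.19, adjusted p = 3.73e-24). With the medium 9 of the 36 tested targets were at least 2-fold lower and 2 at least 2-fold higher, or 25% and 5.56%, where 4.21% and 1.24% of all tested genes were. The choice of genes for the list may have shaped these shares, since earlier results were known, so they are no test of the pathway.

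Of 11 other tested adhesion molecules, 2 rose and 4 fell in aging RGCs, and 1 rose and 4 fell with the medium. Against normal RGCs the medium group had 3 higher (27.3%) and 7 lower (63.6%), beside 30.6% and 29.9% of all tested genes. At 2-fold or more, 2 were higher (18.2%) and 6 lower (54.5%), beside 1.47% and 5.24% of all tested genes. Selp, P-selectin, rose in aging RGCs like Vcam1, from 9.17 ± 0.310 to 19.2 ± 1.27 CPM (log2 1.07, adjusted p = 5.94e-11), but was not called between medium and aging RGCs. Itgam, an integrin of myeloid cells, fell in aging RGCs (log2 -2.72) and had 52, 18 and 21 counts in normal, 6, 3 and 3 in aging and 5, 2 and 29 in medium libraries. The proteoglycan gene Vcan rose with the medium from 108 ± 1.29 to 266 ± 4.13 CPM (log2 1.29, adjusted p = 3.02e-21), and the low-level Icam5 fell (log2 -0.98, adjusted p = 0.0314).

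Of the 8 tested relatives of Birc3 in the IAP family, 3 rose in aging RGCs and 5 did not pass, whereas 1 rose and 2 fell with the medium. Birc5, a mitotic survival gene, rose from 97.8 ± 2.91 to 129 ± 1.20 CPM in aging RGCs (log2 0.39) and to 146 ± 0.773 with the medium (log2 0.19, adjusted p = 0.000127). Xiap, the direct caspase inhibitor, fell with the medium from 140 to 118 CPM (log2 -0.24), and Naip1, from a family of near-identical copies whose reads may be shared, rose in aging RGCs at a low level (log2 0.94, adjusted p = 0.0410). The 5 tested genes that share the Tnfaip name had 2 lower and 3 not called in aging RGCs, Tnfaip6 (log2 -2.05, at most 15 counts) and Tnfaip1, which fell from 181 to 150 CPM (log2 -0.27) and rose to 163 with the medium (log2 0.12). Tnfaip8l2 fell with the medium (log2 -1.16, adjusted p = 0.0446) at 18 counts or fewer, and Tnfaip8l1 was higher with the medium than in normal RGCs (log2 0.51).

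**Figure D4:**
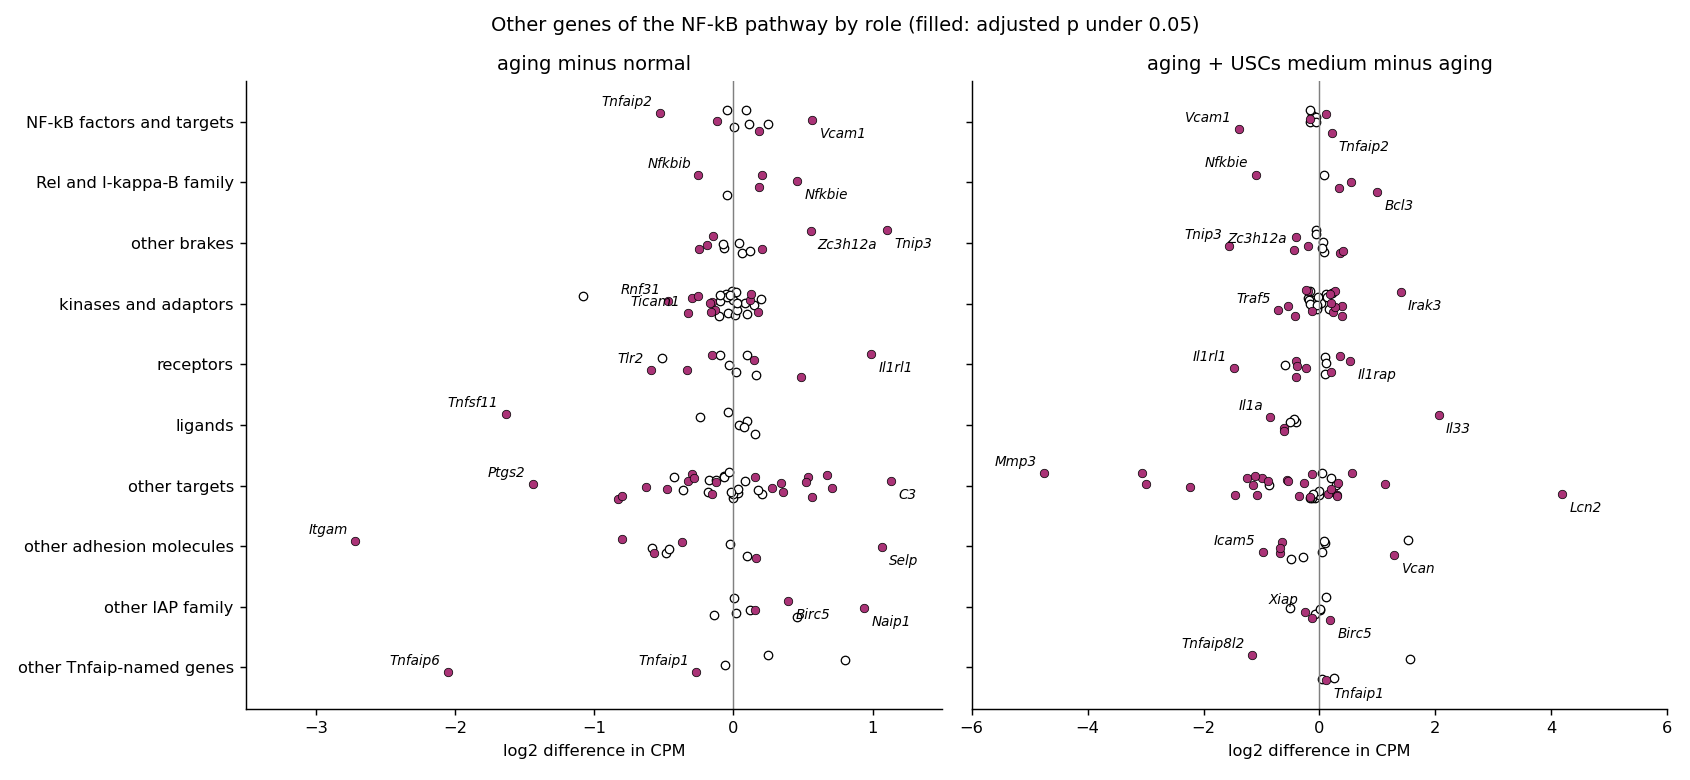
Log2 differences in CPM (x axis) of the 9 tested NF-kB genes in the top row and of 125 other pathway genes by role below, for aging minus normal and for aging + USCs medium minus aging; each point is a gene, filled for an adjusted p under 0.05. Filled points lie on both sides of 0 in most lists, and the widest spread is among other targets, from Mmp3 at -4.75 to Lcn2 at 4.19 with the medium.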

How the data were processed

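The authors deposited 1 table with an expected count and an FPKM value per gene for each of the 9 libraries, with gene annotation, and their labels name the build mm10. mRNA had been enriched with oligo(dT) beads. For the aligner, the counter and the use of strand, nothing is given in the sources used here. From 6.92% to 7.38% of the count values had decimals and were rounded to whole numbers. Genes were tested with edgeR 4.0.16 (quasi-likelihood F test, R 4.3.3) after filterByExpr, with TMM factors and 1 mean per group over all 9 libraries. p-values were adjusted by Benjamini-Hochberg over the 12145 genes tested, and a call needs an adjusted p under 0.05. CPM and mean ± SD were computed from the counts, and the deposited FPKM values served only for levels between genes and for limma 3.58.1 on log2(FPKM + 1) or log2(FPKM + 0.1). Replicate numbers in the labels are not stated to pair wells. The other alternatives were DESeq2 1.42.0, other scalings and filters, only the groups compared, a replicate block, and leaving out each library.

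All 10 genes are given with their values. From each list the text names the genes with the 2 largest absolute log2 differences among those called in each comparison, and for 3 genes the 3 genes of most similar course. The 10 genes, the lists and the rules were chosen with earlier results of these data known. Gene positions come from GENCODE on GRCm38, the build called mm10, and promoters from RefSeq on GRCm38.p6. The consensus is 3 G, a purine, any base, A or T, 2 pyrimidines and 2 C. Scripts were tested on simulated counts.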

Additional observations from a re-analysis of the deposited data

How the results depend on the processing

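Vcam1 kept its direction and its call in all 3 comparisons under every alternative, and so did Tnfaip2 except between medium and aging RGCs on the FPKM scale (log2 0.13, adjusted p = 0.239 and 0.232 with a pseudocount of 1 and 0.1). Over all alternatives, 453 single-gene results kept their side of the threshold, 17 came to pass it, 14 no longer passed it and 2 reversed with a call. The 2 were Rela in the medium against normal RGCs, which turned from 0.02 to -0.14 with log2(FPKM + 1) and to -0.15 with log2(FPKM + 0.1). Among the 453, small differences without a call could change sign. Nfkb2 in aging against normal RGCs, for example, went from -0.05 to 0.02 without normal replicate 2. Between medium and normal RGCs the median of all genes was -0.11 without TMM factors and -0.10 with FPKM + 0.1, against -0.013 with TMM factors, and the small differences of Nfkb1, Nfkb2 and Nfkbia moved with it. Counts of the 10 genes changed as follows, where Icam1 counts once it passes the filter. In aging against normal RGCs, 1 was higher with either FPKM scale in place of 2. In the medium against aging RGCs, 1 was higher without TMM factors or with upper-quartile factors and 0 with either FPKM scale, and 4 were lower without TMM factors or with either FPKM scale. With upper-quartile factors, no filter, the filter of 1 CPM or only the groups compared, or with the replicate block, 3 were lower. Against normal RGCs 5 were lower without TMM factors or with either FPKM scale in place of 3. At 2-fold or more, 0 were higher in any comparison, and 0, 1 and 0 were lower. Leaving out 1 library gave 2 to 3 higher and 1 to 2 lower in aging against normal RGCs, 1 to 2 higher and 2 to 4 lower in the medium against aging RGCs, and 2 to 4 lower against normal RGCs. Of the 125 other pathway genes, 16 and 15 were higher in aging against normal RGCs with FPKM + 1 and + 0.1 in place of 27, and 20 with both against normal RGCs in place of 32. Causes were not tested.

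Same-numbered wells did not deviate together (correlations of -0.037 to 0.048 over genes), so the numbers are treated as names. With the replicate block Nfkb2 was lower in the medium than in aging RGCs (log2 -0.12, adjusted p = 0.0346), and no other call among the 9 genes changed. Depth limits Icam1, with 2 counts in each medium library.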

Other observations

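Of the 145 other pathway genes, 20 had too few counts to be tested. Cd40lg, Tnfsf14, Ptx3, Birc7 and Tnfaip8l3 had 0 counts in all 9 libraries. The lymphotoxin genes Lta and Ltb, whose products feed the non-canonical branch of Nfkb2 and Relb, had at most 3 and 6 counts in a library. Saa3, an acute-phase gene, reached 41 counts in 1 library, the highest among the 20. These genes were chosen for their counts, outside the rule for named genes.

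The annotation in the deposited table places 269 genes in the KEGG pathway NF-kappa B signaling, with 9 of the 10 genes among them and Tnfaip2 outside it. Of the 269, 163 are immunoglobulin or T-cell receptor gene segments, none of which was tested here. Without the 9, 68 of its genes were tested, and 13 rose (19.1%) and 19 fell (27.9%) in aging against normal RGCs, beside 23.6% and 23% of all tested genes. In the medium against aging RGCs 20 rose and 20 fell (29.4% each), beside 27.1% and 26%, with a median log2 difference of -0.018 against -0.0067 over all tested genes. At 2-fold or more, 0 of the 68 rose and 3 fell (4.41%) in that comparison, beside 1.24% and 4.21% of all tested genes.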
